A study of Mus musculus with 12 samples.

Results

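The colon takes up salt, water and phosphate and secretes chloride and bicarbonate through a small set of transporters and channels in its lining. Genes for 10 of these proteins were followed here in colon tissue of mice given dextran sulfate sodium (DSS), a polymer that injures the colonic lining, with or without L-arginine (L-Arg) in the water afterwards. The members are Scnn1a, Scnn1b, Scnn1g, Atp12a, Slc26a3, Slc9a3, Cftr, Slc34a2, Aqp8 and Aqp4, found by gene symbol among the probe sets of the array that carry exactly 1 gene. All 10 were found, each with 1 probe set, among 19938 genes measured.

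Colonocytes absorb sodium on their luminal side either through the epithelial sodium channel (ENaC), a channel built from the alpha, beta and gamma subunits that Scnn1a, Scnn1b and Scnn1g encode and that aldosterone controls in the distal colon, or through the sodium-hydrogen exchanger NHE3 (Slc9a3), which works beside the chloride-bicarbonate exchanger DRA (Slc26a3) to take up salt without net charge. Chloride secretion runs through CFTR, potassium is recovered by the proton-potassium pump whose catalytic subunit is Atp12a, phosphate enters with sodium through NaPi-IIb (Slc34a2), and water crosses through aquaporins such as Aqp8 and Aqp4. Diarrhea in colitis is known to go with lower salt absorption, which is why these genes are of interest in this model.

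RNA of 12 colons, 1 array each, was hybridized to Affymetrix Gene ST arrays. The mice were wild-type C57BL/6 males that entered the study at 7 weeks of age. DSS+L-Arg mice (n = 3) drank 4% DSS for 6 days and then 1% L-Arg for 4 days. DSS mice (n = 3) drank 4% DSS for 6 days and then water for 4 days. Control+L-Arg mice (n = 3) drank water for 6 days and then 1% L-Arg for 4 days, and control mice (n = 3) drank only water. All were killed on day 10, so every DSS array comes from tissue that had been off DSS for 4 days. Values are log2 intensities, so a difference of 1 is a doubling. The labels describe a single piece of colon per array without its position, whereas the study's general methods describe RNA from a proximal and a distal piece combined, so the share of each region in an array is not known. A piece of colon mixes epithelium with muscle, nerves and infiltrating cells, and in such tissue fewer cells of a type and less RNA per cell cannot be told apart.

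The arrays carried the markers of colon tissue, and 4 of the marker lists varied widely between arrays. The median of 12 epithelial markers, relative to the control mean, lay between 0.01 and 0.09 in DSS+L-Arg arrays, between -0.04 and 0.02 in DSS, between -0.16 and -0.04 in control+L-Arg and between -0.07 and 0.03 in control arrays, a narrow spread in all 4 groups. Of these 12, 2 were called higher in both DSS groups together than in the groups without DSS, as were 3.04% of all genes. The median of 10 smooth muscle markers lay between -1.24 and -0.28 in DSS+L-Arg, between -1.57 and -0.91 in DSS, between -0.69 and 1.11 in control+L-Arg and between -0.42 and 0.76 in control arrays, and 4 of the 10 were called lower in both DSS groups together than in the groups without DSS, as were 3.96% of all genes. The median of 8 neutrophil markers lay between 0.20 and 0.66 in DSS+L-Arg, between 2.37 and 4.95 in DSS, between -0.38 and 0.13 in control+L-Arg and between -0.52 and 0.79 in control arrays. That of 8 monocyte and macrophage markers lay between 0.15 and 0.37 in DSS+L-Arg, between 1.11 and 1.92 in DSS, between -0.10 and 0.63 in control+L-Arg and between -0.14 and 0.07 in control arrays, and 6 of the 8 were called higher in DSS than in control mice, where 1.8% of all genes were. A set of 6 genes of the posterior Hox clusters (Hoxa13, Hoxb13 and Hoxd10 to Hoxd13), which mark the distal end of the gut, split the arrays across group lines. Their mean was 8.42 to 8.89 in DSS+L-Arg array 1, control+L-Arg arrays 1 and 3 and control arrays 1 and 3, and 6.36 to 7.63 in the other 7 arrays, which include every DSS array. Some results are also given from a fit with a marker level as a covariate. Where that level differs between the groups, as for smooth muscle, such a fit cannot separate it from DSS. The part of these markers in the results was otherwise not tested.

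Of the 10 genes, 1 differed between mice with and without DSS. Slc34a2 was lower after DSS by about 6-fold to 8-fold, with or without L-Arg. The other 9 did not pass in any comparison when all 12 arrays were fitted without a covariate or weights on the arrays. No member was called between DSS+L-Arg and DSS mice. Calls rest on limma with p-values adjusted over all 19938 genes and a threshold of 0.05.

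**Figure D1:**
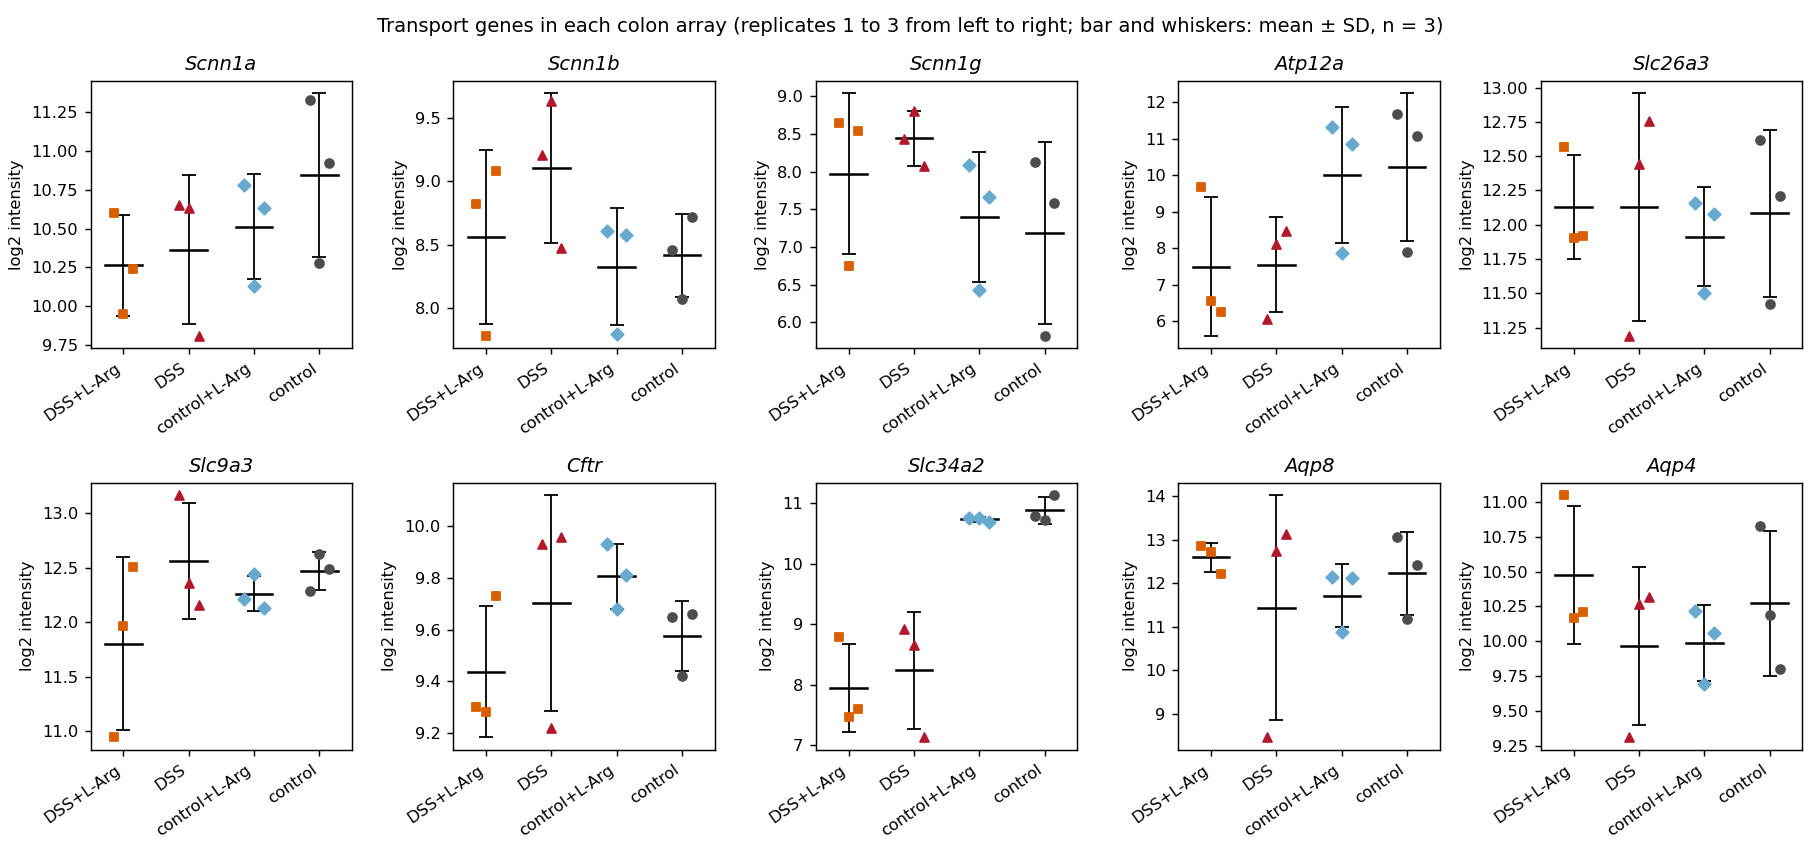
Log2 intensity of the 10 transport genes (vertical axis, a separate scale in each panel) in each array of the 4 groups (horizontal axis); the bar and whiskers are the mean and SD of 3 arrays. For Slc34a2 the 6 arrays of DSS and DSS+L-Arg mice, at 7.13 to 8.93, all lie below the 6 arrays of mice without DSS, at 10.69 to 11.14.

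Of the members, only the gene of a phosphate carrier was called in the fit of all arrays without a covariate or weights on the arrays. Slc34a2 (Entrez Gene 20531) encodes the apical sodium-phosphate cotransporter NaPi-IIb, the main carrier of regulated phosphate absorption in the intestine. Its log2 intensity was 8.79, 7.47 and 7.60 in DSS+L-Arg mice and 8.93, 8.65 and 7.13 in DSS mice. It was 10.76, 10.75 and 10.69 in control+L-Arg mice and 10.79, 10.73 and 11.14 in control mice. The highest array of a DSS-treated mouse was thus well below the lowest array of a mouse without DSS, and the arrays within the DSS groups were spread more widely than those within the groups without DSS. Among all genes, 2.35% had both DSS groups wholly below both groups without DSS and 1.83% wholly above, and Slc34a2 was the only member in either class.

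DSS mice averaged 8.24 ± 0.97 and control mice 10.89 ± 0.22 (SD, n = 3 each), a log2 fold change of -2.65 (SE 0.43, limma adjusted p = 0.00817), or 6.27-fold lower. In this comparison 2.23% of all genes were called lower and 1.8% higher, against 1 lower and 0 higher of the 10 members. The call held without each of the 12 arrays in turn, with log2 fold changes from -3.00 to -2.09 and adjusted p from 0.00382 to 0.0458. It was lost when only the 6 arrays of these groups were fitted (adjusted p = 0.0623), when the smooth muscle level was a covariate (log2 fold change -2.51, adjusted p = 0.0541) and by SAM, the permutation method that the study's methods name (adjusted p = 0.126). With 20 label orders, SAM called 0 of all genes in this comparison at the adjusted threshold, so that loss is not particular to Slc34a2.

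No difference was detected between DSS+L-Arg and DSS mice. DSS+L-Arg mice averaged 7.95 ± 0.73, and the difference from DSS mice was -0.29 (95% confidence interval -1.22 to 0.65, adjusted p = 0.804), an interval that includes a further fall as well as a partial return. Against control mice, DSS+L-Arg mice were lower by 2.93 on the log2 scale (SE 0.43, adjusted p = 0.0381), and against control+L-Arg mice, which averaged 10.73 ± 0.04, lower by 2.78 (SE 0.43, adjusted p = 0.0379). Few genes passed in these comparisons, so 1 member lower of 10 stands beside 0.0351% of all genes lower and 0.0301% higher against control, and 0.105% lower and 0.201% higher against control+L-Arg. DSS versus control and DSS+L-Arg versus control share the same 3 control arrays.

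These calls for DSS+L-Arg mice lay close to the threshold. Against control, the size stayed between -3.35 and -2.69 without each array in turn, but the adjusted p went above 0.05 without any single control, control+L-Arg or DSS+L-Arg array, from 0.0566 without control+L-Arg array 2 to 0.196 without control array 3. It stayed below 0.05 without any single DSS array. Against control+L-Arg, the size stayed between -3.20 and -2.54, and the call was kept without any single DSS array and without control+L-Arg array 2, and lost without each of the other 8, with the highest adjusted p, 0.154, without control+L-Arg array 3. With all 12 arrays, both DSS groups together were lower than both groups without DSS by 2.72 (SE 0.30, adjusted p = 0.00152), where 3.96% of genes were called lower and 3.04% higher, and this call held without each array in turn (adjusted p from 0.000373 to 0.00735). With the smooth muscle level as a covariate the call was lost (log2 fold change -2.58, adjusted p = 0.0759).

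The effect of DSS on Slc34a2 did not differ measurably between mice with and without L-Arg (interaction -0.13, SE 0.60, adjusted p = 0.96). Over the 12 arrays the genes most like Slc34a2 were Cpm (Pearson r = 0.939), the membrane carboxypeptidase M, Crym (r = 0.938), a thyroid hormone-binding crystallin, and Zbtb33 (r = 0.937), which encodes the methyl-DNA binding factor Kaiso. These correlations describe arrays that fall into 2 sets with and without DSS and carry no test.

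The promoter windows of 4 members are shown because the values turn on Slc34a2 and Scnn1g, and because Slc26a3 and Aqp8 had the most similar pair of profiles. They run from 250 bases before to 50 bases after a RefSeq transcript start on the plus strand of GRCm38.p6, at chr5:53049103-53049402 (Slc34a2), chr7:121734229-121734528 (Scnn1g), chr12:31437969-31438268 (Slc26a3) and chr7:123462044-123462343 (Aqp8). Capitals mark every match to TTTAT, the core of the sites bound by CDX and posterior HOX proteins, and to AGAACA, the repeated unit of the element bound by the glucocorticoid and mineralocorticoid receptors, each searched on both strands (ATAAA and TGTTCT).
Slc34a2: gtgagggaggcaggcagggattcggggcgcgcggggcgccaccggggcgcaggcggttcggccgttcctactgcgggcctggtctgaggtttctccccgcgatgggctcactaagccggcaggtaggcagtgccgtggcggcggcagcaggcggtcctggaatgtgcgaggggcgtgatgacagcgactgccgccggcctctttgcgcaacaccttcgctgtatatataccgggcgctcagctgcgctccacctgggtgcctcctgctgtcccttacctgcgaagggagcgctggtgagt
Scnn1g: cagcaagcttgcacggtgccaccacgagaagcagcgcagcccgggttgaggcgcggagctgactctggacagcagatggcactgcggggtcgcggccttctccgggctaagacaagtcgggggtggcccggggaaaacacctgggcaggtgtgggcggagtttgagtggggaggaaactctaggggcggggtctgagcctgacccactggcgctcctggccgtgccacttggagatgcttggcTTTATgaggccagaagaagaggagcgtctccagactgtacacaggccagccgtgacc
Slc26a3: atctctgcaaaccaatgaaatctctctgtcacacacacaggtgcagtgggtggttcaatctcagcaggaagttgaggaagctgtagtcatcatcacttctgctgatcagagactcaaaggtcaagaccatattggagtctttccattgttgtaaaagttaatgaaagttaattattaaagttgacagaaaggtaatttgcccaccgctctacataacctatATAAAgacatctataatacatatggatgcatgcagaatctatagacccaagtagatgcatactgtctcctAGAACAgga
Aqp8: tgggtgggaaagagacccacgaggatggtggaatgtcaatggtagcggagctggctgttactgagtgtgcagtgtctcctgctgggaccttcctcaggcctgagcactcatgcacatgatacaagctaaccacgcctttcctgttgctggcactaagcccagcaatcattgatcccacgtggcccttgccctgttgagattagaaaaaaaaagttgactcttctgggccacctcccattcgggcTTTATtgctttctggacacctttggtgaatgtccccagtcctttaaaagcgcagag
Windows of 7 of the 10 members were searched. No window was searched for Scnn1a, Atp12a and Aqp4. The search of members also skipped 1 chromosome, which does not by itself account for these genes. The windows of all genes were not limited in this way. TTTAT or its complement was in 3 of the 7 (Scnn1g, Slc26a3 and Aqp8, 1 match each) and in 40.0% of all 32851 promoter windows. AGAACA or its complement was in 1 of the 7 (Slc26a3) and in 19.0% of all windows. The Slc34a2 window held neither. It was rich in G and C (68.7%, against a median of 52.7% over all windows), while the Slc26a3 window was at 39.3%. The transcript start used lies downstream of the first base of the gene in the RefSeq gene table by 59 bases for Scnn1g, 5077 bases for Slc26a3 and 35158 bases for Slc9a3, whose window is among the 7, so the matches in the Slc26a3 window are inside the gene as that table draws it. The windows are sequence from the reference and not from these mice.

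No subunit gene of the sodium channel was called in the fit without a covariate, and differences between the subunits were not tested. Scnn1a (Entrez Gene 20276), the alpha subunit that the channel needs to conduct, was at 10.60, 9.95 and 10.24 in DSS+L-Arg mice and at 10.65, 10.63 and 9.81 in DSS mice. It was at 10.78, 10.13 and 10.63 in control+L-Arg mice and at 11.33, 10.28 and 10.92 in control mice. All groups overlapped, and the estimates were -0.58 (SE 0.30, adjusted p = 0.454) for DSS+L-Arg against control and -0.48 (SE 0.30, adjusted p = 0.427) for DSS against control.

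Scnn1b (Entrez Gene 20277), the beta subunit, was at 8.82, 7.78 and 9.08 in DSS+L-Arg mice and at 9.21, 9.64 and 8.47 in DSS mice. In control+L-Arg mice it was at 8.61, 7.79 and 8.58, and in control mice at 8.46, 8.07 and 8.72. The DSS arrays reached above every control array in 2 of 3 mice, and the groups still overlapped (0.69, SE 0.37, adjusted p = 0.34).

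Scnn1g (Entrez Gene 20278), the gamma subunit, was at 8.64, 6.74 and 8.54 in DSS+L-Arg mice and at 8.44, 8.81 and 8.08 in DSS mice. Without DSS it was at 8.09, 6.43 and 7.66 in control+L-Arg mice and at 8.13, 5.82 and 7.59 in control mice. The second array of each group other than DSS was the lowest of its group, by more than 1 log2 unit. The difference between DSS and control was 1.27 (SE 0.64, adjusted p = 0.311), and between DSS+L-Arg and control 0.80 (SE 0.64, adjusted p = 0.628).

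Scnn1b and Scnn1g are neighbours on chromosome 7, with no protein-coding gene between them in the RefSeq table, and their profiles over the 12 arrays were alike (r = 0.847). Zfp512, a zinc finger gene, was among the 3 genes most like each of them (r = 0.919 with Scnn1b and 0.891 with Scnn1g). Scnn1b was most like Leng8 (r = 0.94) and Per3 (r = 0.924), a gene of the circadian clock. Scnn1g was most like Nfatc2 (r = 0.895), followed by Zfp512 and then Ly6g (r = 0.882), a surface marker of mouse neutrophils. Scnn1a was most like Itih5, Tlcd1 and Ttll6 (r = 0.909, 0.908 and 0.904).

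Atp12a (Entrez Gene 192113), the catalytic subunit of the colonic proton-potassium pump, had the widest range of the 10 genes together with Aqp8. It was at 9.68, 6.55 and 6.26 in DSS+L-Arg mice and at 6.06, 8.11 and 8.47 in DSS mice. In control+L-Arg mice it was at 11.31, 7.87 and 10.84, and in control mice at 11.68, 7.90 and 11.07. The lowest array of each group without DSS lay among the arrays of the DSS groups, so the groups overlapped. The estimates were large and imprecise, at -2.72 (95% confidence interval -5.42 to -0.02, adjusted p = 0.393) for DSS+L-Arg against control and -2.67 (-5.37 to 0.03, adjusted p = 0.262) for DSS against control. For both DSS groups together the estimate was -2.59 (SE 0.87, adjusted p = 0.0971), and it passed without control array 2 (-3.17) and without control+L-Arg array 2 (-3.12).

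**Figure D2:**
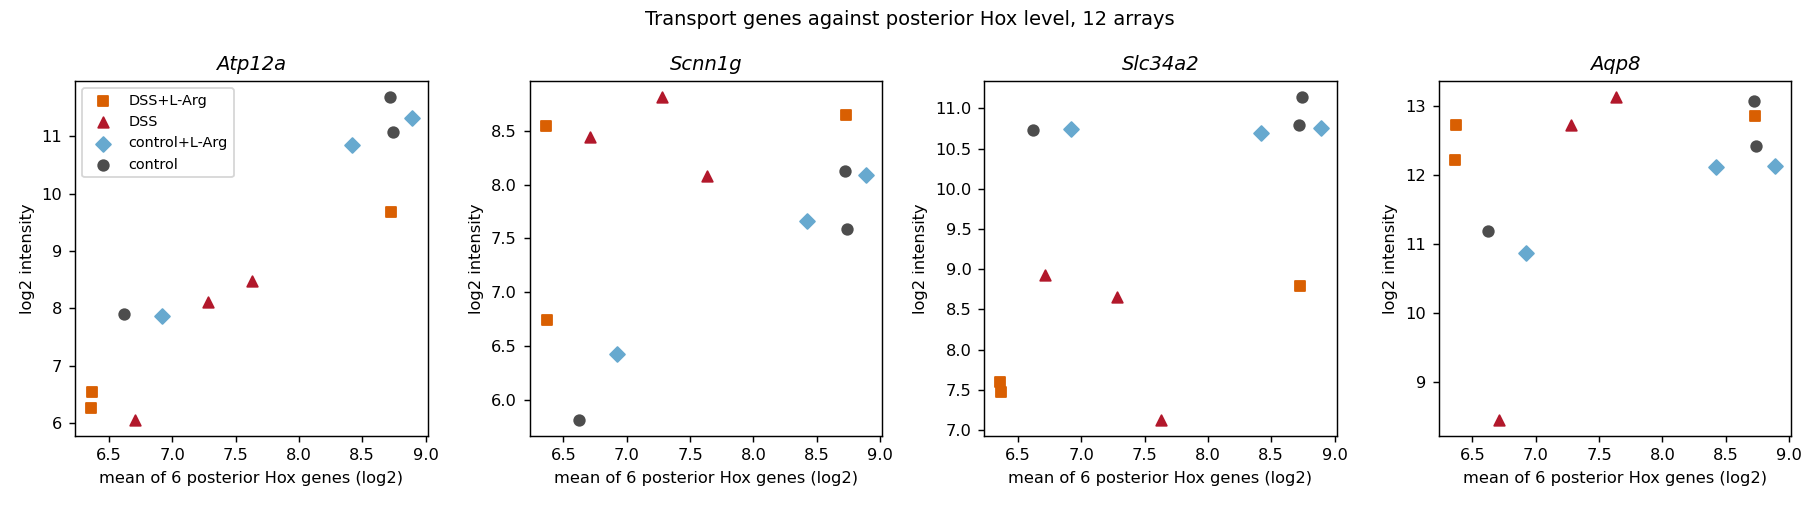
Log2 intensity of Atp12a, Scnn1g, Slc34a2 and Aqp8 (vertical axes) against the mean log2 intensity of 6 posterior Hox genes (horizontal axis) in the 12 arrays, with a symbol for each group. Atp12a is at 9.68 or above in the 5 arrays with a Hox mean of 8.42 or more and at 8.47 or below in the other 7. Slc34a2 is low in all arrays of DSS-treated mice, and only DSS+L-Arg array 1 (8.79) of these has a high Hox mean.

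Atp12a was high or low with the posterior Hox level, across group lines. In the 5 arrays with a Hox mean of 8.42 to 8.89, Atp12a was at 9.68 in the single array of a DSS+L-Arg mouse and at 10.84 to 11.68 in the 4 arrays of mice without DSS. In the 7 arrays with a Hox mean of 6.36 to 7.63, it was at 6.06 to 8.47 in the 5 arrays of DSS-treated mice and at 7.87 and 7.90 in the 2 arrays without DSS. Slc34a2 was split otherwise. It stood at 10.75 in control+L-Arg array 2 and 10.73 in control array 2, both with a low Hox mean, and at 8.79 in DSS+L-Arg array 1, with a high one.

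With the posterior Hox mean as a covariate, 3 members were called between DSS and control in place of 1. Scnn1g was higher in DSS mice by 1.81 (limma adjusted p = 0.0459), Atp12a was lower by a log2 fold change of -1.34 (adjusted p = 0.0337), against -2.67 without the covariate, and Slc34a2 was lower by a log2 fold change of -2.51 (adjusted p = 0.0113). In that fit 3.53% of all genes were called lower and 2.37% higher. Between both DSS groups and both groups without DSS the same 3 members were called, with Scnn1g at 1.5 (adjusted p = 0.0293), Atp12a at -1.17 (adjusted p = 0.0165) and Slc34a2 at -2.57 (adjusted p = 0.0033), beside 4.05% of all genes lower and 2.63% higher. A different position of the piece, an unequal share of proximal and distal tissue in a combined sample and a changed Hox level in the same tissue cannot be told apart in these data. The genes most like Atp12a were Glul (r = 0.979), which encodes glutamine synthetase, Ggh (r = 0.956), a folate hydrolase, and Clic6 (r = 0.956).

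The exchangers of neutral salt uptake were not called. Slc26a3 (Entrez Gene 13487), which exchanges chloride for bicarbonate and whose loss causes congenital chloride diarrhea in humans, was at 12.57, 11.90 and 11.92 in DSS+L-Arg mice and at 11.19, 12.44 and 12.76 in DSS mice. Without DSS it was at 12.16, 11.50 and 12.08 in control+L-Arg mice and at 12.62, 11.42 and 12.21 in control mice. All 4 groups overlapped, with differences of 0.05 for DSS+L-Arg against control (95% confidence interval -0.83 to 0.93) and 0.05 for DSS against control (-0.83 to 0.93).

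Slc9a3 (Entrez Gene 105243), the sodium-hydrogen exchanger NHE3, was at 10.94, 11.96 and 12.51 in DSS+L-Arg mice and at 13.17, 12.36 and 12.16 in DSS mice. In control+L-Arg mice it was at 12.21, 12.44 and 12.13, and in control mice at 12.29, 12.63 and 12.49. The first DSS+L-Arg array was the lowest of the 12 and the first DSS array the highest. The difference between DSS+L-Arg and DSS was -0.76 (SE 0.34), with an unadjusted p of 0.0473 that did not survive adjustment (limma adjusted p = 0.362). Over the 12 arrays Slc9a3 ran against Slc26a3 (r = -0.615), Aqp8 (r = -0.657) and Aqp4 (r = -0.78). The genes most like it were Gsdme (r = 0.908), a gasdermin, Slc10a2 (r = 0.88), the ileal bile acid transporter, and Rhbdd3 (r = 0.879).

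Cftr (Entrez Gene 12638), the cyclic AMP-regulated channel of chloride secretion, varied least. It was at 9.30, 9.28 and 9.73 in DSS+L-Arg mice and at 9.93, 9.22 and 9.96 in DSS mice. Without DSS it was at 9.93, 9.68 and 9.81 in control+L-Arg mice and at 9.65, 9.42 and 9.66 in control mice. Every control+L-Arg array was above every control array, as in 3.66% of all genes, by 0.23 (SE 0.19, limma adjusted p = 0.999). DSS+L-Arg differed from control by -0.15 (95% confidence interval -0.57 to 0.27), and DSS from control by 0.12 (-0.30 to 0.54). The genes most like Cftr were Twnk, Mex3a and Rnf43 (r = 0.892, 0.89 and 0.885), the last a Wnt pathway ubiquitin ligase of crypt cells.

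**Figure D3:**
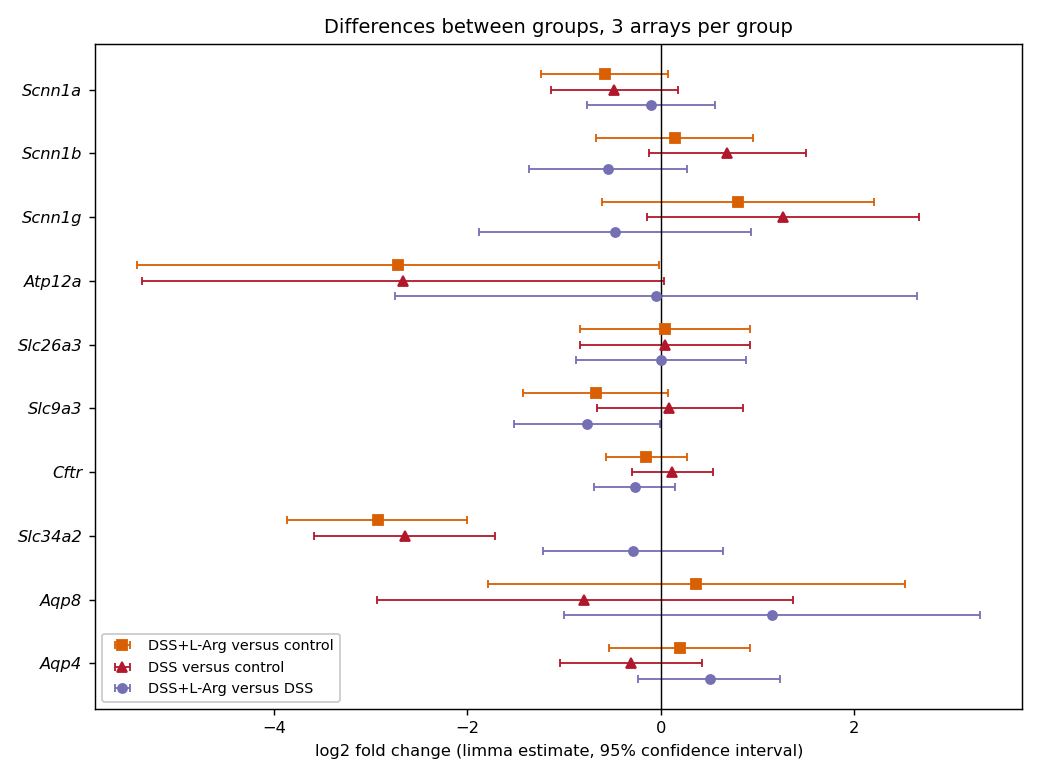
Log2 fold change (horizontal axis) of each transport gene (vertical axis) with its 95% confidence interval from limma, for DSS+L-Arg versus control, DSS versus control and DSS+L-Arg versus DSS, 3 arrays per group. Only the Slc34a2 estimates against control, -2.93 and -2.65, lie far from 0 relative to their intervals, and the Atp12a and Aqp8 intervals are the widest.

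The water channels were not called either. Aqp8 (Entrez Gene 11833), a channel of surface colonocytes, was at 12.85, 12.72 and 12.22 in DSS+L-Arg mice and at 8.46, 12.73 and 13.13 in DSS mice. In control+L-Arg mice it was at 12.14, 10.88 and 12.12, and in control mice at 13.07, 11.19 and 12.42. The first DSS array lay more than 2 log2 units below all others, while the remaining DSS arrays were among the highest of the 12. That array decided the estimate, since DSS differed from control by -0.79 (SE 0.99, adjusted p = 0.736) with it and by 0.70 without it, and DSS+L-Arg from DSS by 1.15 (SE 0.99, adjusted p = 0.628) with it and by -0.33 without it.

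The same array was the lowest of the 12 for Slc26a3 (11.19), Aqp4 (9.31) and Atp12a (6.06) and the highest for Slc9a3 (13.17). Its neutrophil marker median, 3.32, was between those of the other DSS arrays. Every DSS+L-Arg array had more Aqp8 than every control+L-Arg array, as in 12.9% of all genes, with a difference of 0.88 (SE 0.99, limma adjusted p = 0.705). Aqp8 was most like Slc37a2 (r = 0.887), a sugar-phosphate transporter that was also second for Slc26a3 (r = 0.898), then Slc26a3 itself (r = 0.866) and Reg4 (r = 0.863). Acpp (r = 0.929) was first and Arhgap35 (r = 0.891) the third for Slc26a3.

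Aqp4 (Entrez Gene 11829), a water channel of the basolateral membrane, was at 11.05, 10.17 and 10.21 in DSS+L-Arg mice and at 9.31, 10.27 and 10.32 in DSS mice. Without DSS it was at 10.22, 9.69 and 10.06 in control+L-Arg mice and at 10.83, 10.19 and 9.80 in control mice. The groups overlapped throughout. DSS+L-Arg differed from DSS by 0.51 (95% confidence interval -0.23 to 1.24) and DSS from control by -0.31 (-1.04 to 0.43). Its profile was like those of Aqp8 (r = 0.766) and Slc26a3 (r = 0.747) among the members and, over all genes, most like Clec3a, Kars and Pdx1 (r = 0.879, 0.844 and 0.835).

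No member was called for L-Arg, after DSS or without it. Between DSS+L-Arg and DSS, 0 members were called by limma, where 0.637% of all genes were called in either direction. An unadjusted p under 0.05 was found for 1 member (Slc9a3) of 10 and for 2697 of all 19938 genes. SAM called 0 members and 0 of all genes at an adjusted p under 0.05, and 0 members beside 1952 genes at an unadjusted p under 0.05. Between control+L-Arg and control, 0 members and 0% of all genes were called by limma, with 0 members and 686 genes at an unadjusted p under 0.05, and SAM gave 0 members and 963 genes at that limit. For the interaction of DSS and L-Arg, 0 members were called by limma, beside 0.0752% of all genes. There 0 members and 2154 genes had an unadjusted p under 0.05. The median log2 fold change of the 10 members was -0.13 for DSS against control and -0.05 for DSS+L-Arg against control, beside -0.01 and 0.03 over all genes.

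Of 66 measured genes in 6 further lists of transport genes, 4 were called higher and 2 lower in both DSS groups together, beside 3.04% of all genes higher and 3.96% lower. In DSS against control 1 was called higher and 3 lower, beside 1.8% and 2.23% of all genes. None of the 66 was called between DSS+L-Arg and DSS or for the interaction, beside 0.637% and 0.0752% of all genes in either direction. None was called between control+L-Arg and control, where 0% of all genes were. Between DSS+L-Arg and control none was called, beside 0.0301% of all genes higher and 0.0351% lower. For DSS+L-Arg set against control+L-Arg the count was 2 higher and 0 lower, beside 0.201% and 0.105% of all genes.

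**Figure D4:**
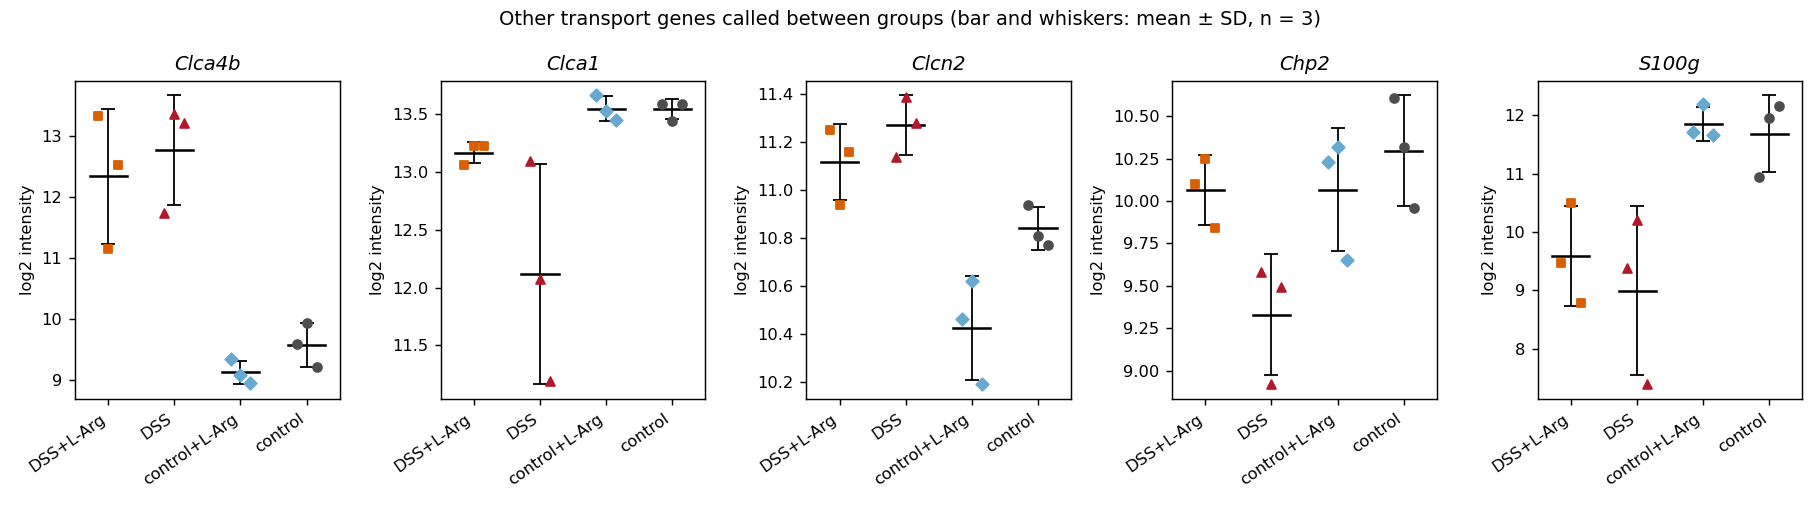
Log2 intensity of Clca4b, Clca1, Clcn2, Chp2 and S100g (vertical axis, a separate scale in each panel) in each array of the 4 groups (horizontal axis); the bar and whiskers are the mean and SD of 3 arrays. Clca4b is at 11.15 to 13.35 in arrays of DSS-treated mice and at 8.96 to 9.94 in the others, and S100g at 7.39 to 10.50 against 10.94 to 12.19.

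Among 10 other apical chloride, sulfate and bicarbonate genes, the moved ones belong to the CLCA family of secreted and membrane proteins, which modulate chloride channels rather than carry ions. Clca4b was at 13.33, 11.15 and 12.53 in DSS+L-Arg mice and at 11.73, 13.35 and 13.21 in DSS mice. It was at 9.34, 9.09 and 8.96 in control+L-Arg mice and at 9.59, 9.94 and 9.22 in control mice. The DSS-treated arrays were all above the rest, by 3.18 for DSS against control (SE 0.51, limma adjusted p = 0.00811) and by 3.21 for DSS+L-Arg against control+L-Arg (adjusted p = 0.0379). Clca4a, a close relative, was higher by 0.67 in both DSS groups together (adjusted p = 0.0428), and hybridization of one gene's RNA to the probes of the other was not tested. Clca1, a secreted product of goblet cells, was lower in DSS mice by a log2 fold change of -1.42 (SE 0.34, adjusted p = 0.04), at 13.09, 12.07 and 11.19 in DSS mice and 13.59, 13.44 and 13.59 in control mice. The goblet cell marker median was 0.10, -0.23 and -0.79 in these DSS arrays in the same order. Of 6 measured goblet cell markers, 0 were called in this comparison, beside 2.23% of all genes lower and 1.8% higher. The part of goblet cells in the Clca1 difference was not tested.

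Among 9 measured genes of other phosphate transporters and vitamin D targets, 1 was called. S100g, which encodes the cytosolic calcium-binding protein calbindin-D9k, a vitamin D target and no phosphate carrier, was at 9.47, 10.50 and 8.79 in DSS+L-Arg mice and at 9.39, 10.20 and 7.39 in DSS mice. It was at 11.72, 12.19 and 11.66 in control+L-Arg mice and at 10.94, 11.95 and 12.17 in control mice. Like Slc34a2, it was lower in every array of a DSS-treated mouse than in every other array (DSS against control -2.69, SE 0.63, adjusted p = 0.0381). The phosphate carriers Slc20a1, Slc20a2, Slc34a1 and Slc34a3 and the vitamin D receptor gene Vdr were not called.

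Among 13 measured basolateral genes, Clcn2, a chloride channel, was higher in both DSS groups together by 0.56 (SE 0.09, adjusted p = 0.00633) and in DSS+L-Arg against control+L-Arg by 0.70 (SE 0.12, adjusted p = 0.0498). Among 10 other sodium-hydrogen exchangers and their scaffolds, Chp2, which encodes a calcium-binding partner of these exchangers, was lower in DSS mice by a log2 fold change of -0.97 (SE 0.23, adjusted p = 0.0388), at 9.58, 8.92 and 9.49 in DSS mice against 10.61, 10.32 and 9.96 in control mice. In DSS+L-Arg mice it was at 10.10, 10.25 and 9.84. Among 15 regulators of ENaC, St14, the protease matriptase that acts upstream of channel cleavage, was higher by 0.22 in both DSS groups together (SE 0.06, adjusted p = 0.0447). The aldosterone and glucocorticoid receptor genes Nr3c2 and Nr3c1, the kinase gene Sgk1 and the ubiquitin ligase gene Nedd4l were not called. None of 9 other aquaporin genes was called in any comparison.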

How the data were processed

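The authors normalized the arrays by RMA, and per the labels the submitters' notes name Affymetrix Expression Console 1.1, RMA and mm9. The deposited values are log2 intensities, used unchanged (array medians 6.49 to 6.64). The precision is limited by 3 arrays per group. Of 35556 probe sets, 21789 carried 1 gene in the platform annotation, and the brightest per gene over 12 arrays was kept (19938 genes). One limma 3.58.1 model (R 4.3.3) over the 4 groups gave all contrasts, with Benjamini-Hochberg adjustment over all genes (8 residual and 3.37 prior degrees of freedom). It was tested on simulated data. Members and gene lists were chosen with earlier results of these data known. All 10 members are named, with at most 3 called genes per transport list and the 3 genes with the highest Pearson r to each member over 12 arrays. Arrays of a group were not copies, since at least 95.1% of genes differed by over 0.01 between any 2. Labels do not say that replicate numbers mark litters or batches. The deviations of same-numbered arrays correlated by over 0.1 in every pair only between control+L-Arg and control (r = 0.205, 0.477 and 0.261), where the replicate block called 0 genes, as without it. The labels gave no slide or scan date. Alternatives were SAM, the thresholds of the methods (p under 0.01 and over 2-fold), a fit of the compared groups only, a replicate block, median centring, quantile normalization, a filter on dim genes, probe set means, a trended prior, array weights, covariates for marker levels and leaving out each array. Promoter sequences are from RefSeq (GRCm38.p6).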

Additional observations from a re-analysis of the deposited data

How the results depend on the processing

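Slc34a2 kept its direction in all 94 alternative fits of the 4 comparisons that call it, SAM included (-3.35 to -2.09), and 31 of them lost the call. These were 3 of 24 for DSS versus control, 15 of 24 for DSS+L-Arg versus control, 12 of 24 when DSS+L-Arg was set against control+L-Arg, and 1 of 22 for both DSS groups versus both others. The number of members called, 1 in each, became 0 with the smooth muscle covariate in all 4. It became 0 by SAM at the adjusted threshold in the 3 pairwise comparisons where it was run, and there SAM called 0 of all genes. It was also 0 for DSS versus control when only those groups were fitted, for both DSS+L-Arg comparisons with the epithelial covariate or the trended and robust prior, and for DSS+L-Arg versus control with quantile normalization. With the replicate block, this last count was 0 (log2 fold change of Slc34a2 -2.93). The count over all genes was then 0 too, against 6 higher and 7 lower without the block. The replicate block, a pairing by number, changed no other member's call. The thresholds of the methods gave 1 member, Slc34a2, in the 3 pairwise comparisons, by limma and by SAM. Over all genes, SAM at these thresholds gave 181 higher and 137 lower in DSS mice than in control mice. For DSS+L-Arg mice it gave 43 higher and 54 lower when control mice were the reference. With control+L-Arg mice as the reference, 77 were higher and 61 lower. The posterior Hox covariate gave 3 members in DSS versus control and 3 in both DSS groups versus both others, where array weights gave 2. Without each array in turn the count was 0 to 1 for both DSS+L-Arg comparisons and 1 to 2 for both DSS groups.

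Some estimates changed sign, none of them called. Most were close to 0, but Aqp8, at 1.15 for DSS+L-Arg versus DSS and -0.79 for DSS versus control, and Scnn1g, at -0.47 for DSS+L-Arg versus DSS, were not. For DSS versus control, leaving out 1 array gave ranges of -0.54 to 0.02 for Aqp4, -1.63 to 0.70 for Aqp8, -0.01 to 0.36 for Cftr, -0.28 to 0.52 for Slc26a3 and -0.21 to 0.29 for Slc9a3. Array weights gave -0.33 for Slc26a3 and the Hox covariate -0.19 for Slc9a3. For DSS+L-Arg versus control, the ranges were -0.09 to 0.48 for Aqp4, -0.15 to 0.79 for Aqp8, -0.11 to 0.54 for Scnn1b and -0.28 to 0.32 for Slc26a3, with -0.01 for Slc26a3 under array weights and 0.05 for Cftr under the epithelial covariate. For DSS+L-Arg versus DSS, they were -0.33 to 2.00 for Aqp8, -1.14 to 0.57 for Atp12a, -0.38 to 0.06 for Scnn1a, -0.80 to 0.15 for Scnn1g, -0.84 to 0.06 for Slc34a2 and -0.47 to 0.31 for Slc26a3. Atp12a was at 0.16 with array weights, 0.04 with the Hox covariate and 0.95 with the epithelial covariate, and Slc26a3 at 0.03 with median centring, 0 with quantile normalization, 0.32 with array weights, 0.02 with the Hox covariate and 0.25 with the epithelial covariate. For both DSS groups, the ranges were -0.06 to 0.25 for Aqp4, -0.38 to 0.79 for Aqp8, -0.03 to 0.37 for Slc26a3 and -0.36 to 0.03 for Slc9a3. Array weights gave -0.10 for Aqp4, -0.66 for Aqp8, -0.11 for Slc26a3 and 0.07 for Slc9a3, the smooth muscle covariate -0.15 for Aqp4 and the epithelial covariate 0.07 for Cftr. The cause of these changes was not tested.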

Other observations

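Fxyd4, Trpv6 and Slc20a1, chosen after their values were seen and not called in any comparison, were low in the second array of each group without DSS, where the posterior Hox mean was 6.92 (control+L-Arg) and 6.62 (control). Fxyd4, which encodes a regulator of the sodium-potassium pump, was at 7.32, 6.39 and 6.20 in DSS+L-Arg mice and at 6.55, 8.47 and 6.62 in DSS mice. It was at 8.77, 6.74 and 8.36 in control+L-Arg mice and at 8.90, 6.64 and 8.69 in control mice. Trpv6, an apical calcium channel, was at 7.67, 6.11 and 5.72 in DSS+L-Arg mice and at 5.89, 5.79 and 7.16 in DSS mice. It was at 7.53, 6.17 and 7.65 in control+L-Arg mice and at 7.70, 6.24 and 8.37 in control mice. Slc20a1, a type III phosphate transporter, was at 10.91, 10.40 and 10.49 in DSS+L-Arg mice and at 10.15, 9.72 and 11.02 in DSS mice, against 11.49, 10.35 and 11.14 in control+L-Arg mice and 12.15, 10.22 and 11.10 in control mice. The part of colon position in these values was not tested.

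Among 11 surface colonocyte markers, 2 were called lower in both DSS groups together, where 3.96% of all genes were. Car4, a carbonic anhydrase of the luminal membrane, differed by -0.53 (SE 0.07, limma adjusted p = 0.00321), and Sult1c2, a sulfotransferase, by -0.90 (SE 0.14, limma adjusted p = 0.00565). The list's median was 0.05, beside 0.02 over all genes.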
